A study of Homo sapiens with 20 samples.

Results

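The genes described here are 10 that add acetyl or lactyl groups to lysine, or that supply the activated acyl group. They are EP300, CREBBP, KAT2A, KAT2B, KAT5, KAT7, KAT8, AARS1, AARS2 and ACSS2, chosen by name, with earlier results of these data known. All 10 were found among the 26038 gene symbols of the deposited tables, and all 10 passed the filter on low counts in each comparison. PolyA RNA was sequenced from MHCC-97H, an established line of human hepatocellular carcinoma according to the labels, in 20 libraries of 4 groups of 5, to ask about histone lactylation after sublethal heat of the kind that follows an insufficient microwave ablation. NFS1 cells were labelled as an shRNA knockdown of NFS1, the cysteine desulfurase that provides sulfur for iron-sulfur clusters, and spent 15 minutes in water at 47 °C and then 24 hours in the incubator. NC cells were labelled wild type and had the same 47 °C bath and the same 24 hours. R-47 cells were wild type and were also heated to 47 °C for 15 minutes with 24 hours of recovery, in the other of the study's pair of experiments. R-37 cells were wild type and differed from R-47 only in a bath temperature of 37 °C. The meaning of NC, the number of shRNAs, and whether the cells labelled as knockdown were a pool or a clone: none of these is stated in the labels.

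Lysine acetylation of histone tails loosens chromatin and is bound by bromodomain proteins, and lactylation is a related mark that uses lactate as its source. EP300 (p300) and CREBBP (CBP) are large paralogous coactivators that acetylate histones at enhancers and promoters, and p300 is among the enzymes reported to lactylate histones. KAT2A (GCN5) and KAT2B (PCAF) are paralogs that take the same place in the SAGA and ATAC complexes. KAT5 (TIP60), KAT7 (HBO1) and KAT8 (MOF) belong to the MYST family, and each works in multisubunit complexes with its own scaffold. AARS1 and AARS2 are the cytosolic and mitochondrial alanyl-tRNA synthetases, which can also bind lactate, activate it with ATP and place it on lysine. ACSS2 makes acetyl-CoA from acetate in the cytosol and nucleus, and has also been described as a lactyl-CoA synthetase that works with KAT2A.

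Depth was similar across libraries, at 32219946 to 39689939 counts. The lowest count of any of the 10 genes in any library was 273, for KAT2B, and the highest was 14782, for AARS1. In the libraries labelled NFS1 knockdown the NFS1 transcript measured 64.0 to 70.7 CPM, against 71.4 to 76.0 CPM in NC, where CPM is the TMM-scaled count relative to library size. The groups did not overlap, but the log2 fold change of -0.11 (SE 0.05, adjusted p = 0.114 by edgeR's quasi-likelihood test) was not called lower. NFS1 therefore names the label of these libraries in what follows. The pair of experiments stood far apart. KRT19, a biliary keratin, averaged 0.516 FPKM in NFS1, 0.614 FPKM in NC, 287 FPKM in R-47 and 273 FPKM in R-37, and the mesenchymal filament gene VIM averaged 83.7, 108, 4.51 and 4.39 FPKM in the same order. The labels give both experiments the same line, and whether the cells were the same was not tested. Of 15 hepatocyte and liver carcinoma markers, 7 to 10 reached a mean of 1 FPKM, with KRT8 and HNF4A expressed while the carcinoma marker GPC3 had at most 1 count in any library. Hepatocyte products were mixed. ALB was low, at 0.304 FPKM in NFS1, 0.400 in NC, 2.11 in R-47 and 5.52 in R-37. TTR was at most 0.081 in any group mean. FGB went the other way, at 31.7 FPKM in NFS1, 29.7 in NC, 10.8 in R-47 and 12.9 in R-37. Fibroblast markers, VIM among them, summed to at most 123 FPKM in any library, and cholangiocyte markers, KRT19 among them, to at most 454 FPKM. Leukocyte markers summed to at most 9.05 FPKM in any library and endothelial markers to at most 12.0 FPKM, and PTPRC, which defines leukocytes, did not exceed 9 counts. NFS1 replicate 4 stood apart from its group (lowest correlation of log2 CPM with another library of the group 0.981, against 0.992 as the lowest within NC), and so did R-37 replicate 5 (0.985, against 0.993 as the lowest within R-47). Fold changes of the called writers, correlations of named writer pairs and list counts are given with and without these libraries. The closest patterns and the named genes of the lists are given with all libraries only. No label says that replicates were separate cultures. The p-values therefore measure a spread between libraries that may be technical.

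Levels between genes were compared as FPKM, which is scaled to gene length and library size. FPKM has no TMM factor, so it can order groups of the 2 experiments differently from TMM-scaled CPM. AARS1 was the most abundant writer transcript in every group, with means of 91.5 ± 5.18 FPKM in NFS1, 82.5 ± 3.52 FPKM in NC, 105 ± 4.81 FPKM in R-47 and 88.9 ± 4.61 FPKM in R-37 (SD, n = 5 each). KAT2A came next, at 38.5 ± 2.71, 43.9 ± 1.83, 38.0 ± 1.92 and 40.1 ± 1.84 FPKM, and KAT5 after it, at 23.7 ± 2.13, 26.9 ± 1.48, 21.8 ± 1.46 and 19.2 ± 1.33 FPKM in the same order of groups. The ranges of these 3 genes did not overlap within any group. EP300 was the fourth in NFS1, NC and R-37, at 15.8, 15.4 and 11.04 FPKM, and its range lay above that of the next gene in NFS1 and NC but not in R-37. In R-47 EP300 and CREBBP were level, at 11.2 ± 0.752 FPKM for EP300 and 11.2 ± 0.754 FPKM for CREBBP. Below them the order was close. CREBBP, KAT8, KAT7 and AARS2 all had means between 6.86 and 11.2 FPKM in every group, and most neighbours in that order overlapped in range.

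KAT2B was the least abundant in every group, with means of 3.46 FPKM in NFS1, 2.33 FPKM in NC, 1.88 FPKM in R-47 and 1.95 FPKM in R-37. The FPKM ratio of its paralog KAT2A to KAT2B averaged 11.5 in NFS1, 19.1 in NC, 20.5 in R-47 and 21.3 in R-37. In NFS1 the range of KAT2B overlapped that of ACSS2, the next gene above it, and in the other groups it did not. ACSS2 varied most between groups, with a ratio of 2.12 between its highest mean, in R-37, and its lowest, in NFS1. KAT2B followed with a ratio of 1.85, then AARS2 with 1.55, while KAT7 varied least, with 1.10. Among all genes with an FPKM above 0, AARS1 stood at percentile 96.7 to 97.6 over the 4 groups, and KAT2B at percentile 63.4 in NFS1 and 55.6 in R-37, its highest and lowest.

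**Figure D1:**
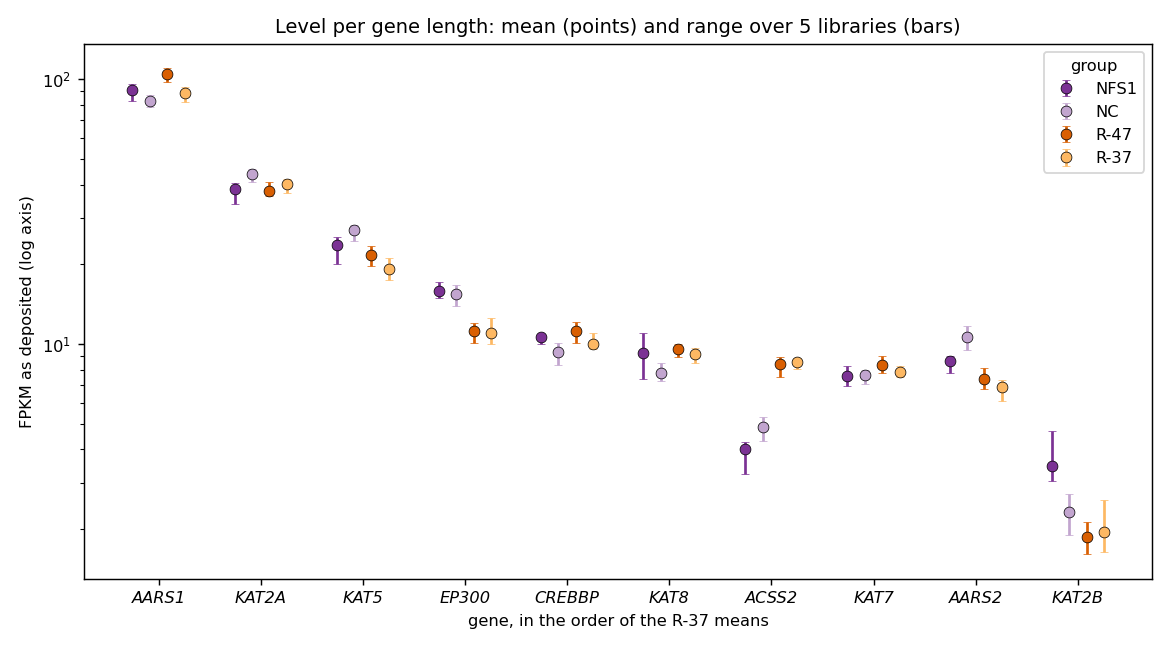
Mean deposited FPKM (log axis) of each writer gene in NFS1, NC, R-47 and R-37, with bars for the range over 5 libraries. AARS1 lies highest, with means of 82.5 to 105 FPKM, KAT2B lowest, with means of 1.88 to 3.46 FPKM, and ACSS2 shows the widest split between NFS1 or NC and R-47 or R-37.

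The heat comparison asked what remained 24 hours after 47 °C in wild-type cells. Among the 10 writers, AARS1 was higher in R-47 than in R-37 and KAT2A was lower, and the other 8 did not pass the threshold. Over all 14344 genes tested, 25.1% were called at an adjusted p under 0.05 by edgeR's quasi-likelihood test, 11.9% higher and 13.2% lower, so 2 of 10 called writers is near the background. Of the genes called, 1714 were higher and 1890 lower, a split that scaling by library size alone turned to 2977 and 1013. The median size of the log2 fold change was 0.09 for the writers and 0.15 for all genes tested. For none of the 10 did the R-47 and R-37 libraries separate without overlap, against 18% of all genes tested, 8.07% higher and 9.95% lower. In bulk RNA, fewer cells with a transcript and less of it in each cell cannot be told apart.

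AARS1 measured 356, 381, 403, 390.3 and 378 CPM in R-47, against 359.9, 334, 359.5, 345 and 313 CPM in R-37. All R-47 libraries but the lowest lay above every R-37 library. AARS1 was higher by 0.16 on the log2 scale (SE 0.05, 1.12-fold) with an adjusted p of 0.024. Without R-47 replicates 3, 4 or 5, each left out alone, the adjusted p of AARS1 passed 0.05, up to 0.066. Without R-37 replicate 5 AARS1 had a log2 fold change of 0.14 (adjusted p = 0.025). AARS2, its mitochondrial counterpart, averaged 41.6 ± 3.18 CPM in R-47 and 40.7 ± 2.97 CPM in R-37, a log2 fold change of 0.03 with a 95% interval of -0.10 to 0.17.

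KAT2A measured 128, 134, 145, 125 and 134 CPM in R-47, against 158, 146, 150.1, 153 and 137 CPM in R-37. Only R-47 replicate 3 and R-37 replicate 5 broke the separation of the groups. KAT2A fell by 0.16 on the log2 scale (SE 0.05, adjusted p = 0.037). The KAT2A call was lost without R-47 replicates 1, 2, 4 or 5, or R-37 replicates 1, 2, 3 or 4, each left out alone, with adjusted p-values up to 0.277 over all settings. It was kept without R-37 replicate 5 (log2 fold change -0.18, adjusted p = 0.012). Under scaling by library size alone the fold change was -0.08 and not called. Across all genes the heat fold change was higher at higher GC content (Spearman rho 0.39 over the 93.6% of tested genes with a known GC content), and KAT2A has 59.0% GC. With length and GC offsets its fold change was -0.27 (adjusted p = 7.49e-07).

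Its partner in the reported lactylation pathway, ACSS2, measured 27.2, 30.4, 30.9, 25.5 and 29.5 CPM in R-47, against 32.4, 30.5, 29.3, 31.7 and 30.6 CPM in R-37. The log2 fold change of ACSS2 was -0.10 (SE 0.06, adjusted p = 0.264), and -0.15 with an adjusted p of 0.029 under length and GC offsets. KAT2B averaged 9.43 ± 0.981 CPM in R-47 and 10.4 ± 1.99 CPM in R-37, where replicate 5 alone reached 13.5 CPM. Its log2 fold change was -0.13 (95% interval -0.36 to 0.10), and -0.01 without that library.

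The coactivators did not pass the test. EP300 averaged 104 ± 6.96 CPM in R-47 and 108 ± 9.78 CPM in R-37 (log2 fold change -0.06, 95% interval -0.18 to 0.07), and the sign turned under library-size scaling. CREBBP averaged 136 ± 9.34 CPM in R-47 and 128 ± 7.47 CPM in R-37 (0.09, interval -0.02 to 0.20), and was called under library-size scaling (0.16, adjusted p = 0.040). In the MYST family, KAT5 averaged 53.9 ± 3.86 CPM in R-47 and 50.5 ± 3.81 CPM in R-37 (0.10, interval -0.03 to 0.23). KAT5 was called higher under library-size scaling (0.18, adjusted p = 0.048) and on log2(FPKM + 1) (0.17, adjusted p = 0.041), but was -0.02 with length and GC offsets. KAT7 averaged 84.2 ± 4.62 CPM in R-47 and 83.7 ± 2.92 CPM in R-37, with an interval of -0.09 to 0.11. KAT8 averaged 26.3 ± 1.5 CPM in R-47 and 26.8 ± 1.24 CPM in R-37, with an interval of -0.14 to 0.10.

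**Figure D2:**
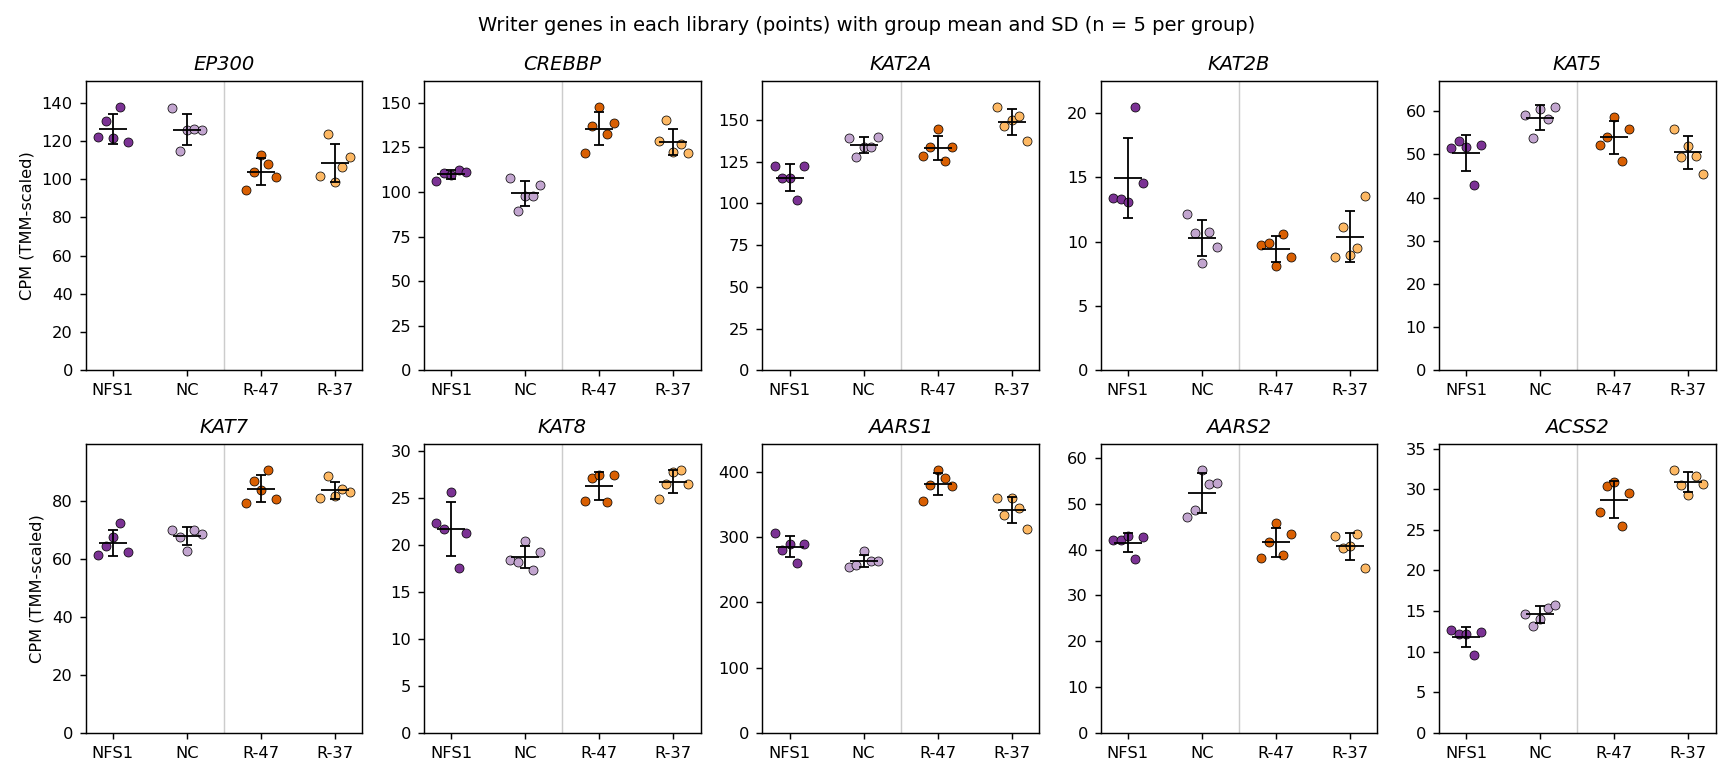
TMM-scaled CPM of each writer gene in every library (points), with the mean and SD of 5 libraries per group, from NFS1 and NC on the left to R-47 and R-37 on the right. The R-47 and R-37 points overlap for every gene, NFS1 and NC separate for KAT2A, KAT2B, KAT5, AARS2 and ACSS2, and the single high KAT2B point in NFS1 is replicate 4.

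The comparison of NFS1 with NC set the libraries labelled NFS1 knockdown against NC, both heated to 47 °C. KAT2B and CREBBP were higher in NFS1, and AARS2, ACSS2, KAT2A and KAT5 were lower. The KAT2 paralogs thus changed in opposite directions. By edgeR's quasi-likelihood test 28.1% of 15086 genes were called (15.7% higher and 12.5% lower), against 6 of the 10 writers. Of the genes called, 2364 were higher and 1881 lower, and with length and GC offsets 2361 and 3263. The median size of the log2 fold change was 0.20 for the writers and 0.19 for all genes. Libraries did not overlap for 1 writer called higher, KAT2B, and for the 4 called lower, against 21% of all genes tested, 10.5% each way.

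KAT2B, the acetyltransferase also known as PCAF, measured 13.4, 13.3, 13.1, 20.4 and 14.6 CPM in NFS1, against 12.1, 10.6, 8.35, 10.7 and 9.58 CPM in NC. Every NFS1 library lay above every NC library, and NFS1 replicate 4 was far above the rest. The log2 fold change was 0.56 (SE 0.13, adjusted p = 0.0069, 1.47-fold), the largest of the 10 in this comparison. Without NFS1 replicate 4 it was 0.42 (adjusted p = 0.0027), and in every alternative fit run it lay between 0.42 and 0.62 and was called.

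KAT2A measured 123, 115, 115, 102 and 122 CPM in NFS1, against 139, 128, 134, 134 and 139.9 CPM in NC. All NFS1 libraries lay below all NC libraries, replicate 4 lowest. KAT2A fell by 0.21 on the log2 scale (SE 0.06, adjusted p = 0.014), by 0.17 without NFS1 replicate 4 (adjusted p = 0.0074), and was called in all 22 alternative fits. The ratio of KAT2A to KAT2B within a library, in FPKM, was 13.1, 12.5, 12.6, 7.19 and 12.0 in NFS1, against 16.5, 17.2, 23.0, 18.0 and 21.0 in NC. That ratio does not depend on how libraries are scaled, and the groups did not overlap in it.

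ACSS2 measured 12.7, 12.2, 12.2, 9.57 and 12.4 CPM in NFS1, against 14.7, 13.1, 14.0, 15.4 and 15.8 CPM in NC. The groups did not overlap, with NFS1 replicate 4 lowest. ACSS2 fell by 0.29 on the log2 scale (SE 0.09, adjusted p = 0.027), and by 0.22 without NFS1 replicate 4 (adjusted p = 0.028). The ACSS2 call did not hold without NC replicate 4 or NC replicate 5 (adjusted p = 0.064 and 0.070), with the replicate block (0.070) or on log2(FPKM + 1) without a filter (0.078).

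ACSS2 and KAT2A varied together across libraries. Their correlation of log2 CPM was 0.81 over the 10 R-47 and R-37 libraries and 0.96 over the 10 NFS1 and NC libraries. The value over NFS1 and NC was not particular to this pair. There KAT5 had 0.96 with ACSS2 and 0.95 with KAT2A, against 0.26 and 0.20 over the R-47 and R-37 libraries. For KAT2A and KAT2B the correlation was weak over the R-47 and R-37 libraries, at -0.32, and was -0.85 over the NFS1 and NC libraries. Without R-37 replicate 5 and NFS1 replicate 4, a choice made after seeing the data, these were 0.84 and 0.93 for ACSS2 with KAT2A, and -0.38 and -0.69 for KAT2A with KAT2B, over 9 libraries each. Over the same 9 libraries each, KAT5 had 0.44 and 0.90 with ACSS2, and 0.17 and 0.90 with KAT2A. The points share library depth and hold the group difference. The promoters of these genes are shown because KAT2A and ACSS2 both fell in NFS1 while KAT2B, the paralog of KAT2A, rose. Each is the 250 bases before the outermost RefSeq start on GRCh38.p14, read 5′ to 3′ on the gene's strand. Capitals mark matches to any of 10 motifs searched.
KAT2A, chr17:42121368-42121617, minus strand: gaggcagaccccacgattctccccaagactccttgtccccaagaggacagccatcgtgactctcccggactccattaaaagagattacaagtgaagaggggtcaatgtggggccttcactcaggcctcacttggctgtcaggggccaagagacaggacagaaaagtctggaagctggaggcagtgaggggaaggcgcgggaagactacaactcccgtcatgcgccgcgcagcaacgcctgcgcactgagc
ACSS2, chr20:34874739-34874988, plus strand: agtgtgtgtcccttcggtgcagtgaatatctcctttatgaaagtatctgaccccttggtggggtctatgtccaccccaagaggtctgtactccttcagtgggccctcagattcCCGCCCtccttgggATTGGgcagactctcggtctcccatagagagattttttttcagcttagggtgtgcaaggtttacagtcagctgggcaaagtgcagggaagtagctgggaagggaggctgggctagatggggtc
KAT2B, chr3:20040196-20040445, plus strand: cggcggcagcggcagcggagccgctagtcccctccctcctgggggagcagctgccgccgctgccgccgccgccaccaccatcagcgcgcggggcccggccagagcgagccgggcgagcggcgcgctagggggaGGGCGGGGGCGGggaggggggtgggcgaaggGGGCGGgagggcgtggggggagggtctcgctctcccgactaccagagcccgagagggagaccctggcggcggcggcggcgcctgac

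The KAT2B window had 80.8% GC and held 3 GC boxes (GGGCGG), all between 117 and 81 bases before the start. The ACSS2 window had 53.6% GC and held a GC box and a CCAAT box, both read on the opposite strand, and the KAT2A window had 58.8% GC and matched none of the 10. No match overlapped another in these 3 windows. ACSS2 has a second RefSeq start, not printed, whose window (chr20:34876362-34876611) had 64.8% GC and held 3 GC boxes and no CCAAT box. The motifs were searched on both strands. A GC box occurs in 42.6% of the 35116 RefSeq promoter windows of this length and CCAAT in 32.0%. The others were the heat shock element core GAANNTTC (5.78% of windows), TGATGNAAT of the C/EBP-ATF response (0.888%), TCACNCCAC of the sterol response (0.883%), TGACGTCA of the cAMP response (1.65%), the E-box CACGTG (6.34%), the palindromic NRF1 motif (1.03%), CCGGAAGT of ETS factors (3.42%) and TATAAA (10.7%). Promoter windows were matched for 8 of the 10 writers. KAT5 held an E-box and 2 ETS sites, KAT7 1 ETS site, CREBBP 3 GC boxes at its outermost start, with a base shared by a pair of them, AARS1 2 CCAAT boxes and a GC box, and EP300 none. The KAT5 window (chr11:65712002-65712251) lies mostly within the gene, whose RefSeq position begins at 65712018, and not before its outermost start. The windows of the matched writers held no match to the heat shock, C/EBP-ATF, sterol, cAMP, NRF1 or TATA letters.

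AARS2 measured 42.0, 42.1, 42.9, 37.9 and 42.7 CPM in NFS1, against 47.1, 48.6, 57.4, 54.4 and 54.5 CPM in NC. The groups were apart, and the NFS1 libraries were close to each other except replicate 4. AARS2 fell by 0.32 on the log2 scale (SE 0.07, adjusted p = 0.0026), the most of the writers called lower, and every alternative fit called it, at -0.36 to -0.27. Without NFS1 replicate 4 it was -0.29 (adjusted p = 0.0012). AARS1 measured 306, 281, 290.0, 261 and 289.8 CPM in NFS1, against 254, 257, 279, 263 and 264 CPM in NC. Its groups overlapped through NFS1 replicate 4, the lowest of its group. The log2 fold change of AARS1 was 0.13 (SE 0.05, adjusted p = 0.063), and without that library 0.16 (adjusted p = 0.00713). AARS1 was also called with library size alone (0.15, adjusted p = 0.047). The ratio of AARS1 to AARS2 in FPKM averaged 10.6 ± 0.367 in NFS1 and 7.78 ± 0.424 in NC, with no overlap.

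CREBBP measured 106, 110.4, 109.7, 112 and 111 CPM in NFS1, against 108, 89.4, 97.8, 97.8 and 104 CPM in NC. Only NC replicate 1 reached into the NFS1 range. The log2 fold change was 0.16 (SE 0.06, adjusted p = 0.045), and the call held in 10 of 22 alternative fits. Without NFS1 replicate 4 it was 0.15 (adjusted p = 0.034). It did not hold without NFS1 replicates 2, 3 or 5, or NC replicates 2, 3, 4 or 5 (adjusted p up to 0.126), nor with DESeq2 size factors (0.061), all 20 libraries (0.051), no filter (0.089) or the replicate block (0.112), and with length and GC offsets it was 0.05 (adjusted p = 0.411). Its paralog EP300 averaged 126 ± 7.71 CPM in NFS1 and 126 ± 8.08 CPM in NC (log2 fold change 0.02, 95% interval -0.10 to 0.14).

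KAT5, the catalytic subunit of the TIP60 complex, measured 51.4, 53.1, 51.7, 42.9 and 52.3 CPM in NFS1, against 59.2, 53.9, 60.5, 58.3 and 60.9 CPM in NC. The groups nearly touched, at 53.1 CPM in NFS1 and 53.9 CPM in NC. KAT5 fell by 0.20 on the log2 scale (SE 0.07, adjusted p = 0.034), and by 0.15 without NFS1 replicate 4 (adjusted p = 0.027). The call held in 12 of 22 alternative fits and was lost without NFS1 replicate 3 or NC replicates 1, 3, 4 or 5 (adjusted p up to 0.080). It was also lost with library size alone (0.063), with the replicate block (0.075) and in the 3 FPKM fits (0.057 to 0.098). The KAT5 gene overlaps RNASEH2C, a subunit gene of RNase H2, on chromosome 11, and the strand setting of the counting is not given, so reads of the pair cannot be told apart where they overlap. RNASEH2C averaged 69.7 CPM in NFS1 and 104 CPM in NC (log2 fold change -0.56, adjusted p = 0.000226). Its part in the KAT5 result was not tested.

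KAT8, which acetylates histone H4 within the MSL and NSL complexes, measured 22.4, 21.7, 25.7, 17.6 and 21.3 CPM in NFS1, against 18.4, 18.3, 20.5, 17.4 and 19.3 CPM in NC. All NFS1 libraries but replicate 4 lay above every NC library. The log2 fold change of KAT8 was 0.23 (SE 0.09, adjusted p = 0.076), and 0.21 with an adjusted p of 0.041 with all 20 libraries in the fit. With NFS1 replicate 4 left out, the lowest library of its group, the fold change of KAT8 was 0.29 (adjusted p = 0.0053), so that 4 writers were then called higher and 4 lower. KAT7 averaged 65.6 ± 4.50 CPM in NFS1 and 67.8 ± 3.02 CPM in NC (-0.03, 95% interval -0.15 to 0.09). With length and GC offsets KAT7 was called lower (-0.19, adjusted p = 0.0014).

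Across all genes the log2 fold change of NFS1 against NC was lower at higher GC content (Spearman rho -0.23) and higher at greater length (rho 0.24). Among the writers, KAT2B has the lowest GC content, 43.9%, and AARS2, KAT2A and KAT5 have 59.1%, 59.0% and 57.4%. With length and GC offsets KAT2B remained called at 0.46, AARS2 at -0.32, ACSS2 at -0.27, KAT2A at -0.18 and KAT5 at -0.14. The same offsets also called KAT8 higher (0.28, adjusted p = 0.0035), AARS1 higher (0.15, adjusted p = 0.0030) and KAT7 lower, while CREBBP was no longer called.

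**Figure D3:**
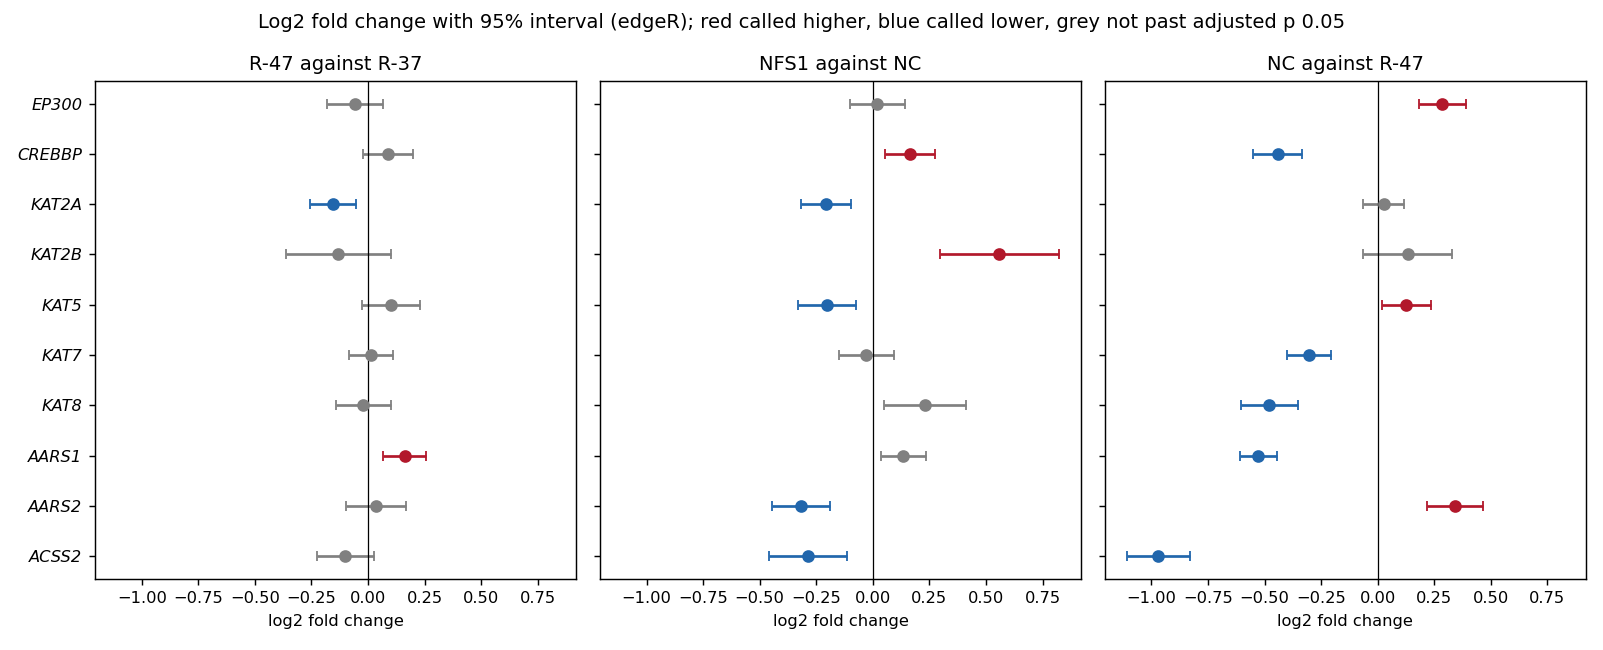
Log2 fold change of each writer gene with its 95% interval, in a panel for each comparison, red where called higher, blue where called lower and grey where the edgeR adjusted p was 0.05 or more. KAT2B at 0.56 and ACSS2 at -0.97 are the widest departures in the NFS1 against NC and the NC against R-47 panels, and every heat value lies within 0.17 of 0.

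The comparison of NC with R-47 joined groups with the same genotype and treatment labels from the 2 experiments, so whatever differed between experiments cannot be told apart from the groups. AARS2, EP300 and KAT5 were higher in NC, and ACSS2, AARS1, KAT8, CREBBP and KAT7 were lower. With 79.7% of 15080 genes called, 8 of 10 writers called is the background share (40.1% higher and 39.6% lower over all genes). The libraries did not overlap for 2 writers higher and 5 lower in NC, against 67.3% of all genes, 32.7% higher and 34.6% lower. Of the genes called, 6043 were higher and 5978 lower, and with scaling by library size alone 7465 and 4740. The median size of the log2 fold change was 0.32 for the writers and 0.54 for all genes. NC also enters the comparison with NFS1 and R-47 the heat comparison, so the values of the comparisons are not independent.

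ACSS2 differed most. It averaged 14.6 ± 1.05 CPM in NC and 28.7 ± 2.28 CPM in R-47 and fell by 0.97 on the log2 scale (SE 0.07, adjusted p = 3.89e-11). The highest NC library, at 15.8 CPM, lay below the lowest R-47 library, at 25.5 CPM. The alanyl-tRNA synthetases went in opposite directions. AARS1 averaged 264 ± 9.67 CPM in NC and 382 ± 17.4 CPM in R-47 (log2 fold change -0.53, SE 0.04, adjusted p = 1.29e-10). AARS2 was higher in NC, at 52.4 ± 4.35 CPM in NC and 41.6 ± 3.18 CPM in R-47 (0.34, SE 0.06, adjusted p = 4.49e-05). With library size alone AARS1 was -0.35 and AARS2 0.52, both still called.

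EP300 averaged 126 ± 8.08 CPM in NC and 104 ± 6.96 CPM in R-47 (0.28, SE 0.05, adjusted p = 4.73e-05), and CREBBP 99.4 ± 7.05 CPM in NC and 136 ± 9.34 CPM in R-47 (-0.44, SE 0.06, adjusted p = 2.04e-07). For both genes the groups did not overlap. Their sizes depended on the scaling. With length and GC offsets CREBBP was -0.14 and EP300 0.52, and with library size alone CREBBP was -0.26 and EP300 0.47. The ratio of EP300 to CREBBP within a library was accordingly 1.57 to 1.68 in NC and 0.946 to 1.06 in R-47. In the MYST family KAT8 averaged 18.8 ± 1.18 CPM in NC and 26.3 ± 1.5 CPM in R-47 (-0.48, SE 0.06), KAT7 67.8 ± 3.02 CPM in NC and 84.2 ± 4.62 CPM in R-47 (-0.31, SE 0.05), and KAT5 58.6 ± 2.82 CPM in NC and 53.9 ± 3.86 CPM in R-47 (0.13, SE 0.06, adjusted p = 0.042). The KAT5 groups overlapped. The KAT5 call held in 13 of 22 alternative fits and was lost without NC replicates 1, 3 or 5, or R-47 replicates 1, 2, 4 or 5 (adjusted p up to 0.174), with no filter (0.076) and with all 20 libraries in the fit (0.107). RNASEH2C, which overlaps it, averaged 104 CPM in NC and 35.8 CPM in R-47. KAT7 was -0.08 and not called with length and GC offsets (adjusted p = 0.065). With library size alone KAT8 was -0.30, KAT7 -0.12 and KAT5 0.31, all called.

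KAT2A and KAT2B were not called. KAT2A averaged 135 ± 4.90 CPM in NC and 133 ± 7.32 CPM in R-47 (0.03, 95% interval -0.06 to 0.12), and KAT2B 10.3 ± 1.41 CPM in NC and 9.43 ± 0.981 CPM in R-47 (0.13, interval -0.07 to 0.33). Scaling by library size alone moved the median of all genes by 0.18, and both KAT2 genes were then called higher.

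**Figure D4:**
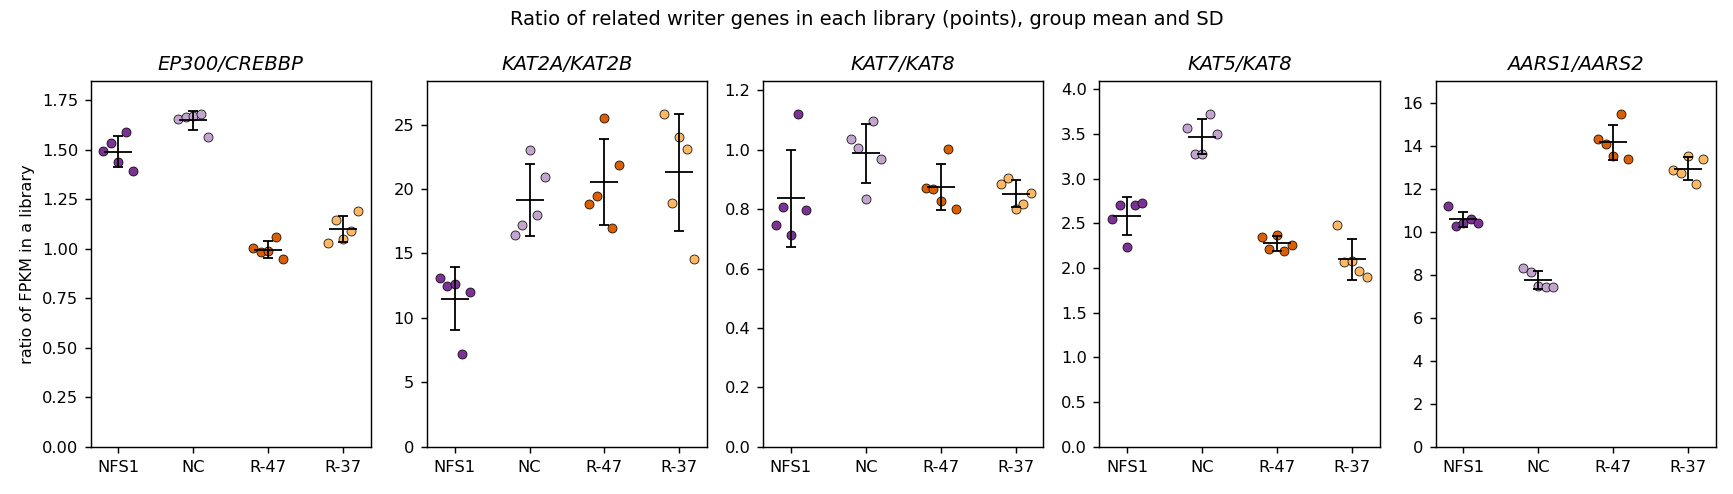
Ratio of the FPKM of related writer genes within each library (points), with the mean and SD of 5 libraries per group. EP300/CREBBP averages 1.49 in NFS1 and 1.65 in NC, against 0.996 in R-47 and 1.10 in R-37, and KAT2A/KAT2B averages 11.5 in NFS1 and 19.1 in NC.

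For R-47 and R-37 the libraries overlapped in all 5 ratios computed. EP300 over CREBBP averaged 0.996 ± 0.0413 in R-47 and 1.10 ± 0.0675 in R-37, and AARS1 over AARS2 averaged 14.2 ± 0.827 in R-47 and 13.0 ± 0.526 in R-37. KAT5 over KAT8 averaged 2.58 ± 0.210 in NFS1 and 3.47 ± 0.193 in NC, with no overlap. KAT7 over KAT8 overlapped in every comparison, at 0.836 in NFS1, 0.988 in NC, 0.875 in R-47 and 0.852 in R-37. The ratios are descriptions, with no test.

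The genes that surround the writers in their complexes were counted by lists, which were drawn up with earlier results of these data known. Some lists share a gene (TRRAP, KAT14, MEAF6 or WDR5), so their counts are not independent. Each count is read against the share of all genes called, 25.1% after heat and 28.1% in NFS1 against NC. Of 16 partners of p300 and CBP, 5 were higher and 0 lower in NFS1 than in NC by edgeR (6 and 0 at an unadjusted p under 0.05, and 6 and 0 by DESeq2), or 31.2% called, with a median log2 fold change of 0.15 against 0.02 for all genes tested. MAML2, a Notch coactivator that recruits p300, averaged 11.6 ± 2.85 CPM in NFS1 and 5.11 ± 0.784 CPM in NC (log2 fold change 1.20, adjusted p = 7.61e-05), and CITED4 averaged 10.4 ± 2.38 CPM in NFS1 and 6.80 ± 0.739 CPM in NC (0.62, adjusted p = 0.0062). After heat 1 partner was higher and 1 lower. CITED2, which competes for a p300 domain, averaged 55.3 ± 1.14 CPM in R-47 and 43.8 ± 3.78 CPM in R-37 (0.34, adjusted p = 0.000915), and the coactivator NCOA3 fell by 0.16. Between NC and R-47, 2 partners were higher and 9 lower.

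The 27 SAGA and ATAC subunits, which house KAT2A and KAT2B, had 1 higher and 3 lower after heat, and 3 higher and 4 lower in NFS1 than in NC, with medians of 0.02 and -0.07. ZZZ3, an ATAC subunit, averaged 46.2 ± 1.54 CPM in R-47 and 55.1 ± 5.63 CPM in R-37, and 55.4 ± 9.73 CPM in NFS1 and 43.8 ± 5.15 CPM in NC, lower in the heat comparison (-0.25) and higher in NFS1 than in NC (0.36). USP22, the deubiquitinase of SAGA, fell by 0.19 with heat (adjusted p = 0.014). Of 17 TIP60 complex subunits, which surround KAT5, 0 were higher and 3 lower after heat by edgeR, and 4 were higher and 3 lower in NFS1. MORF4L2 (MRGX), a TIP60 subunit, averaged 326 ± 17.1 CPM in R-47 and 458 ± 20.9 CPM in R-37 (-0.48, adjusted p = 3.86e-06), and 214 ± 16.2 CPM in NFS1 and 275 ± 12.6 CPM in NC (-0.34, adjusted p = 0.000874). MORF4L1 (MRG15), its paralog with a chromodomain that binds methylated histone, fell by 0.37 with heat.

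Of 9 subunits of KAT7 complexes none was called after heat by edgeR or DESeq2 and none had an unadjusted p under 0.05, and 2 were higher and 1 lower in NFS1. JADE2 was higher by 0.36, ING4 by 0.42, and BRPF3 fell by 0.30. Of 11 MSL and NSL subunits, which carry KAT8, 0 were higher and 2 lower after heat, and 2 were higher and 3 lower in NFS1, where HCFC1 averaged 230 ± 16.2 CPM against 301 ± 17.8 CPM in NC (-0.37, adjusted p = 0.000354). Of 16 other acetyltransferases, 0 were higher and 2 lower after heat, HAT1 by 0.21 and GTF3C4 by 0.19. In NFS1 2 were higher and 2 lower, and NAA10, the catalytic subunit of the N-terminal acetyltransferase NatA, averaged 76.4 ± 8.63 CPM against 128 ± 4.84 CPM in NC (-0.72, adjusted p = 7.47e-06).

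Among the tRNA synthetases other than AARS1 and AARS2, 1 of 19 cytosolic ones was higher and 6 were lower after heat, with a median of -0.08. LARS1 fell by 0.24 and IARS1 by 0.24, while CARS1 was higher by 0.17, beside 0.16 for AARS1. In NFS1 none was higher and 2 were lower by edgeR, FARSA by 0.27 and WARS1 by 0.17. Of 16 mitochondrial synthetases, 1 was higher and 3 lower after heat, and 2 were higher and 4 lower in NFS1, where VARS2 fell by 0.33 and MARS2 by 0.28 beside the fall of AARS2 by 0.32. FARS2 was higher by 0.59 and WARS2 by 0.56.

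Of 20 tested genes of acyl-CoA supply other than ACSS2, 4 were higher and 3 lower after heat, and 3 were higher and 7 lower in NFS1, with a median of -0.12 in NFS1. DLAT, the acetyl-transferring subunit of pyruvate dehydrogenase, averaged 70.7 ± 4.53 CPM in NFS1 and 94.2 ± 4.70 CPM in NC (-0.40, adjusted p = 0.000253), and the fatty acyl-CoA synthetase ACSL5 averaged 56.8 ± 6.56 CPM in NFS1 and 33.8 ± 2.56 CPM in NC (0.77, adjusted p = 1.65e-05). CRAT, which moves acetyl groups onto carnitine, was higher with heat by 0.33 and fell by 0.31 in NFS1. SUCLG2, a subunit of succinyl-CoA ligase, fell by 0.47 with heat.

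Of 19 tested readers of acyl-lysine, 0 were higher and 1 lower after heat by edgeR (BRD2, which fell by 0.13), and 3 were higher and 2 lower in NFS1, where MLLT1, a reader of the elongation machinery, averaged 39.8 ± 4.68 CPM against 23.4 ± 2.74 CPM in NC (0.78, adjusted p = 3.68e-05). Of 18 deacylases, which remove the marks, 4 were higher and 3 lower after heat, among them HDAC9 (0.33) and HDAC2 (-0.22). In NFS1 5 deacylases were higher and 4 lower. HDAC4 averaged 39.4 ± 2.69 CPM in NFS1 and 22.3 ± 1.29 CPM in NC (0.84, adjusted p = 1.16e-06), and the mitochondrial deacetylase SIRT3 fell by 0.35. Of 12 tested lactate makers and carriers none was higher and 4 were lower after heat by edgeR, where LDHB averaged 1101 ± 22.4 CPM in R-47 and 1427 ± 44.0 CPM in R-37 (-0.37, adjusted p = 4.15e-06). In NFS1 2 were higher and 2 lower of 13, with PGK1 falling by 0.45 and the phosphofructokinase gene PFKP higher by 0.30.

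Several of these counts have a 0 on the higher side. At an unadjusted p under 0.05 the higher counts after heat were 1 for TIP60 subunits, 3 for readers, and 0 for MSL and NSL subunits, other acetyltransferases and lactate makers and carriers, and DESeq2 gave 1, 2 and 0. For cytosolic synthetases in NFS1 they were 1 unadjusted and 0 by DESeq2. As shares of each list, from 0% (KAT7 complex subunits) to 38.9% (deacylases) was called after heat, and from 10.5% (cytosolic synthetases) to 50% (acyl-CoA supply and deacylases) in NFS1 against NC. Counts were also taken without the libraries that stand apart, a choice made after seeing the data. Without NFS1 replicate 4, 4 subunits of KAT7 complexes were higher and 1 lower in NFS1, 3 and 11 genes of acyl-CoA supply, 0 and 4 cytosolic synthetases, 3 and 4 lactate makers and carriers, 3 and 3 readers, and 6 and 1 partners of p300 and CBP. Without R-37 replicate 5, 0 TIP60 subunits were higher and 2 lower after heat, 1 and 2 SAGA and ATAC subunits, 1 and 2 mitochondrial synthetases, 0 and 1 other acetyltransferases, and 1 and 0 partners of p300 and CBP. The other lists moved by at most 1 gene in each direction.

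Between NC and R-47 the lists had called shares beside the large background: 77.8% of SAGA and ATAC subunits, 76.5% of TIP60 subunits, 77.8% of KAT7 complex subunits, 63.6% of MSL and NSL subunits, 87.5% of other acetyltransferases, 78.9% of cytosolic and 68.8% of mitochondrial synthetases were called, against 79.7% of all genes. The shares were 68.8% for the p300 and CBP partners, 95% for acyl-CoA supply, 55% for readers, 72.2% for deacylases and 84.6% for lactate makers and carriers.

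Correlations of log2 CPM were computed over the 10 R-47 and R-37 libraries and over the 10 NFS1 and NC libraries for all pairs, and are given in that order as descriptions over points that share depth and group. KAT2B ran against KAT5 (-0.90 and -0.92) and against AARS2 (-0.86 and -0.93), and KAT5 ran with AARS2 (0.81 and 0.89). KAT2B has 43.9% GC, KAT5 57.4% and AARS2 59.1%, and no correlation was computed on values adjusted for GC content. EP300 and CREBBP had 0.52 in both sets, and KAT8 and AARS1 had -0.02 and 0.84. NFS1 replicate 4 and R-37 replicate 5 were the highest KAT2B and the lowest KAT5 and AARS2 libraries of their groups, and both stand apart over all genes. Without them, a choice made after seeing the data, the values over 9 libraries each were -0.84 and -0.81 for KAT2B with KAT5, -0.75 and -0.94 for KAT2B with AARS2, 0.69 and 0.89 for KAT5 with AARS2, 0.69 and 0.41 for EP300 with CREBBP, and -0.02 and 0.82 for KAT8 with AARS1.

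Among 10585 genes that are not writers and average at least 2 on the log2 CPM scale, the closest in pattern were found by the smaller of the 2 correlations. Symbols starting with LOC, LINC or MIR, or holding a hyphen or a dot, had been left out of these. The values below are the highest of that search, over few libraries, and are descriptions only. How high a value the search alone would give was not tested. The points hold the group difference and include the libraries that stand apart, and no values without those libraries are given. EP300 was closest to ARID1A (0.92) and NCOA6 (0.86), CREBBP to SPEN (0.88) and MARCHF8 (0.85), and KAT2A to ABCC10 (0.95). KAT2B was closest to SMC3 (0.94) and RAB5A (0.94), KAT5 to SIN3B (0.94) and RHOG (0.94), AARS1 to FAM83H (0.95) and MSC (0.94), and AARS2 to WDR62 (0.92) and BCL9L (0.91). ACSS2 followed PJA1 (0.84) and PLXNB3 (0.83) less closely. The values were lowest for KAT7 and KAT8, with TOGARAM1 (0.77) and SNW1 (0.76) for KAT7 and GMEB1 (0.68) and NR1D1 (0.68) for KAT8.

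The writers lie on 7 chromosomes, with CREBBP, KAT8 and AARS1 on chromosome 16 and KAT2A and KAT7 on chromosome 17. Genes starting within 1 Mb of each writer were counted, as a description. The counts come from the fit without length and GC offsets. The part of GC content and gene length in them was not tested. KAT5 (chr11:65712018-65719604, GRCh38) stands in a dense region. Of 83 tested neighbours 54 were lower and 2 higher in NFS1 than in NC, against 12.5% and 15.7% of all genes, with a median log2 fold change of -0.34 beside -0.20 for KAT5 itself. Without NFS1 replicate 4, 56 of 83 were lower and 2 higher (median -0.28). In NC against R-47, 69 of 83 neighbours of KAT5 were higher and 8 lower, against 40.1% and 39.6% of all genes, with a median of 0.84 beside 0.13 for KAT5. The region of EP300 (chr22:41092592-41180077) had 26 of 33 neighbours higher and 3 lower in NC than in R-47 (median 0.32, EP300 itself 0.28), and that of ACSS2 (chr20:34874989-34927959) had 24 of 31 lower and 6 higher (median -0.34, ACSS2 itself -0.97). The gene NFS1 (chr20:35668052-35699352) is among those ACSS2 neighbours, at -0.33 in NC against R-47. Around AARS1, 11 of 23 neighbours were higher and 7 lower (median 0.19), against -0.53 for AARS1 itself. KAT8 (chr16:31117664-31131393) had a heat fold change of -0.02, while 16 of its 55 neighbours were called, all of them higher, against 11.9% of all genes higher and 13.2% lower. Without R-37 replicate 5, 14 of 56 were higher and 0 lower. This lean was not particular to KAT8. After heat 14 of 44 neighbours of CREBBP were higher and 1 lower. For KAT5 24 of 79 were higher and 2 lower, and for KAT2A 15 of 52 and 4. AARS2 and ACSS2 also had more neighbours higher than lower. EP300 (1 of 30 higher, 3 lower) and KAT7 (4 of 33 higher, 6 lower) had more lower, and AARS1 and KAT2B had equal counts. KAT2B (chr3:20040446-20154404) lies in sparse sequence with 4 tested neighbours, of which 1 was called in NFS1, higher.

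**Figure D5:**
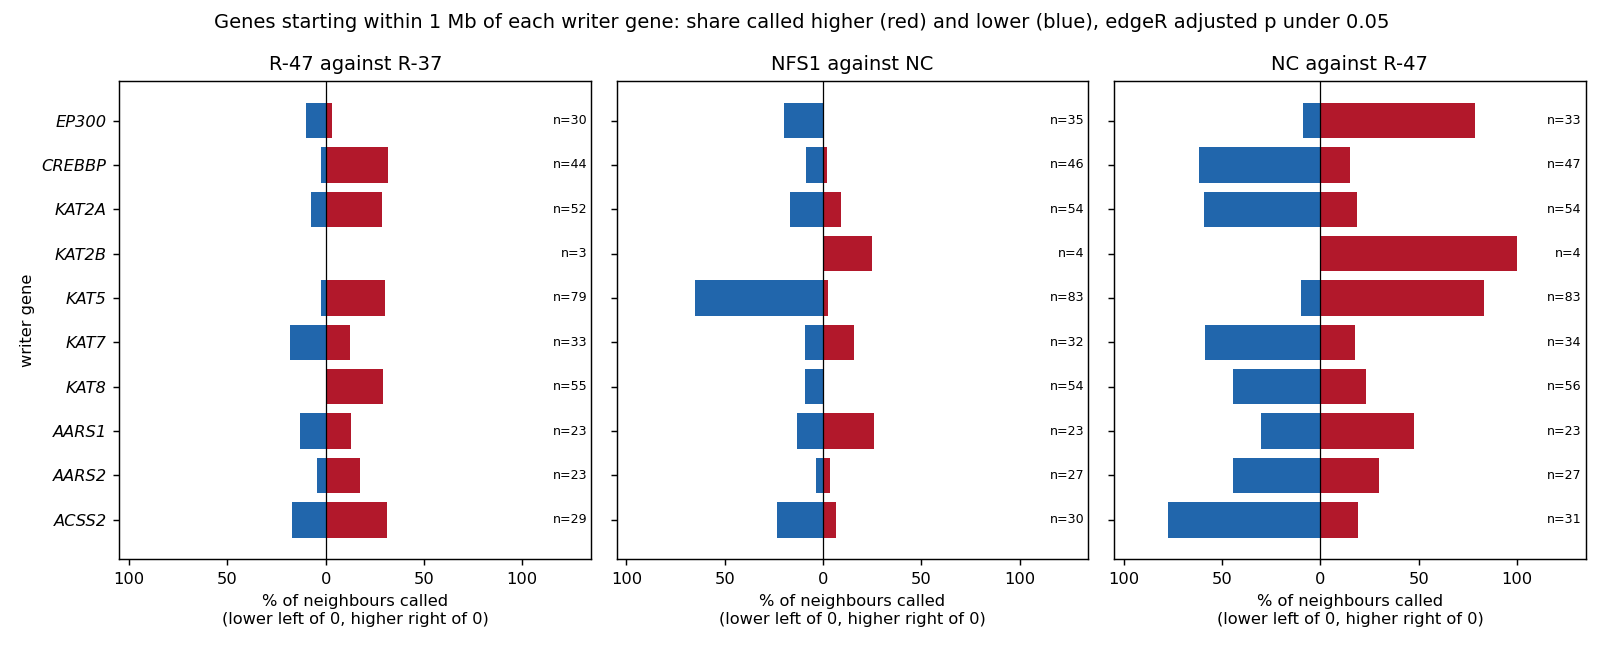
Percent of the tested genes starting within 1 Mb of each writer gene that were called higher (red, right of 0) or lower (blue, left of 0) in each comparison, with the number tested as n. The KAT5 region shows 54 of 83 genes lower and 2 higher in NFS1 than in NC, and 69 of 83 higher and 8 lower in NC than in R-47.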

How the data were processed

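PolyA RNA-seq was analysed from 20 libraries, 5 in each of 4 groups taken from the labels. The authors deposited a table of raw counts per gene symbol and a table of FPKM, made with fastp, HISAT2 and HTSeq on hg38 per the submitters' processing notes. Neither versions nor annotation nor strand setting is stated there. Each deposited FPKM is its count over gene length and library total, with no further scaling.

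The writer genes and the lists of related genes were chosen with earlier results of these data known. Counts were fitted per comparison over all genes with edgeR 4.0.16 (R 4.3.3), after filterByExpr (minimum count 10, minimum total 15) and TMM scaling, by the quasi-likelihood test with Benjamini-Hochberg adjustment, and called at an adjusted p under 0.05. SE was computed from the fold change and F statistic of that fit. The 95% intervals use the normal quantile, so they are somewhat narrower than intervals from the test's own degrees of freedom. CPM per library was scaled by TMM over all 20 libraries. The script was tested on simulated counts, with 50 genes changed at each size. Changes of 1.25-fold were recovered for 60% in R-47 against R-37, 34% in NFS1 against NC and 56% in NC against R-47. Changes of 1.5-fold were recovered for 94%, 78% and 92% in the same order.

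Alternatives were other scaling, other filters, DESeq2 1.42.0, limma-voom (limma 3.58.1), log2(FPKM + 1) and log2(FPKM + 0.1), all 20 libraries in 1 fit, the replicate number as a block, length and GC offsets, and leaving out each library.

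The genes named are the 10 writers, NFS1, examples from each related list taken among the 2 genes called higher and 2 called lower with the largest fold change (for NC against R-47 the lists are given as counts), and the 2 genes closest in pattern to each writer, of which 1 is not reported here. KRT19, VIM and the other markers describe the cells, and RNASEH2C is named for its overlap with KAT5. Gene positions and promoters come from RefSeq on GRCh38.p14, matched for 94.9% of symbols. Same-numbered libraries did not deviate together, so numbers were not taken as pairs. Count precision covers counting error only.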

Additional observations from a re-analysis of the deposited data

Results flagged for a closer look

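Each writer gene was checked in each group of 5 libraries for a library far from the others by Dixon's test at 95%, in 40 groups in all, and chance flags about 1 in 20 groups. In NFS1 replicate 4 KAT2B stood at 4.70 FPKM, with the nearest other NFS1 library at 3.36 FPKM. In the same library ACSS2 stood at 3.23 FPKM, with the nearest other at 4.20 FPKM, and KAT2A at 33.8 FPKM, with the nearest other at 38.8 FPKM. In NFS1 replicate 1 CREBBP stood at 10.04 FPKM, with the nearest other NFS1 library at 10.7 FPKM. The values of these genes without NFS1 replicate 4 stand beside their results above.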

How the results depend on the processing

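Of the writers, KAT2B, KAT2A and AARS2 in NFS1 against NC, and AARS1, AARS2, EP300, CREBBP, KAT8 and ACSS2 in NC against R-47, kept their call and direction in all 22 alternative fits. For R-47 against R-37, 1 writer was called higher and 1 lower. The higher count was 3 with library size alone and 2 with log2(FPKM + 1) and log2(FPKM + 0.1), both with a filter. The lower count was 0 with library size alone, with the replicate block and in all 3 FPKM fits, and 2 with length and GC offsets. Leaving out a library gave 0 to 1 higher and 0 to 1 lower. For NFS1 against NC, 2 were called higher and 4 lower. The higher count was 1 with DESeq2 size factors, with no filter and with the replicate block, 3 with library size alone, both filtered FPKM fits and length and GC offsets, and 1 to 4 when a library was left out. The lower count was 2 with the replicate block and with log2(FPKM + 1) without a filter, 3 with library size alone and both filtered FPKM fits, 5 with length and GC offsets, and 2 to 4 when a library was left out. For NC against R-47, 3 were called higher and 5 lower. The higher count was 5 with library size alone, in the 3 FPKM fits and with length and GC offsets, 2 with no filter and with all 20 libraries in the fit, and 2 to 3 when a library was left out. The lower count was 4 with log2(FPKM + 1) without a filter and with length and GC offsets.

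Of the values not called, some changed sign. In R-47 against R-37 these were EP300, at 0.018 with library size alone, 0.019 with log2(FPKM + 1) with or without a filter and 0.020 with log2(FPKM + 0.1), and KAT8, at 0.055, 0.049 and 0.053 in the same order. With length and GC offsets KAT5 was -0.021 and AARS2 -0.064. Leaving out a library gave -0.016 to 0.037 for KAT7, -0.044 to 0.000653 for KAT8 and -0.00109 to 0.064 for AARS2. In NFS1 against NC, EP300 was -0.10 with length and GC offsets and -0.018 to 0.049 when a library was left out. In NC against R-47, KAT2A was -0.00186 to 0.050 when a library was left out. The cause was not tested.

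Same-numbered libraries had correlated deviations of -0.16 to 0.17 for R-47 and R-37, -0.37 to 0.08 for NFS1 and NC, and -0.03 to 0.27 for NC and R-47, and 1, 0 and 1 of 5 libraries matched best with their own number. With the replicate block the genes called were 2928 for R-47 against R-37, 3068 for NFS1 against NC and 12104 for NC against R-47, against 3604, 4245 and 12021 without it. With length and GC offsets they were 5069 for R-47 against R-37 and 5624 for NFS1 against NC. The lowest count of any writer was 273. How the spread between 5 libraries divides into counting error and other sources was not tested.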
